A study of Mus musculus with 3 samples.

Results

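Fibronectin 1 and its integrin and syndecan receptors were examined as 9 genes, taken by name from the 51826 rows of the deposited expression table. The ligand is Fn1. The receptors are 8 genes, with 4 integrin alpha subunits (Itga4, Itga5, Itga8, Itgav), 3 integrin beta subunits (Itgb1, Itgb3, Itgb5) and Sdc4. Each of the 9 names was on 1 row. The cells were ST2, a mouse bone marrow stromal line with both osteoblast and adipocyte potential, grown with FBS in a medium given as DMEM in the labels and as α-MEM in the study's methods. In the control, the empty vector was combined with control siRNA. In NELL2 overexpression (the NELL2 library), the NELL2 construct replaced the empty vector. In Fn1 knockdown (the knockdown library), siRNA against Fn1 replaced the control siRNA, and siRNA was at 30 nM throughout. All 3 cultures were thus transfected with both a plasmid and an siRNA. Which Fn1 siRNA was used for this library, and when the cells were harvested, is not given in the sources used here. There was 1 library in each group, so every difference below is between 2 libraries, has no replicate check and was given no p-value.

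Fibronectin is a large dimeric glycoprotein that cells secrete and assemble into fibrils. Integrins are receptors made of 1 alpha and 1 beta subunit that grip fibronectin outside the cell and couple to actin inside it. Most of the fibronectin-binding pairs read a short Arg-Gly-Asp (RGD) sequence, whereas pairs with Itga4 read a Leu-Asp-Val (LDV) sequence in an alternatively spliced segment. Syndecan 4 is a membrane heparan sulfate proteoglycan that binds another part of fibronectin and acts beside the integrins at focal adhesions. In bone marrow stroma, fibronectin matrix supports the adhesion and differentiation of osteoblast progenitors, and the comparisons asked how ligand and receptor transcripts stood when NELL2, a secreted glycoprotein, was raised or when Fn1 was lowered.

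The coding sequence of Fn1 that specifies the integrin contact sites is shown because the integrins of the list read these sites. Both lie on the minus strand of GRCm38 chromosome 1 within coding exons of the longest coding transcript, which has 46 exons, and the capitals mark the codons for Arg-Gly-Asp in exon 30 (chr1:71606722-71606778) and for Leu-Asp-Val in exon 40 (chr1:71597659-71597715).
Fn1 RGD codons: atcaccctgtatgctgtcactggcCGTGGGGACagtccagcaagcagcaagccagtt
Fn1 LDV codons: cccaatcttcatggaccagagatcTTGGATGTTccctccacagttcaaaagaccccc
The annotation (GENCODE M21) held 7 coding Fn1 transcripts of 7000 bases or more. The RGD codons were present in 7 of them and the LDV codons in 3. The expression table gives 1 value for the whole gene, so the levels below do not separate transcripts with and without either segment.

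Values were FPKM, fragments scaled to transcript length and to the number mapped, a level per length that can be compared between genes. The estimated depth was about 23000000, 23700000 and 24200000 fragments in the control, NELL2 and knockdown libraries. The cell type label was checked against marker genes. All 10 stromal markers reached 1 FPKM. Col1a1 and Thy1 (138, 133 and 114 FPKM) were the highest of them in the control, and the summed levels were 1932, 2094 and 1772 FPKM in the control, NELL2 and knockdown libraries. Col1a1 alone made up most of each sum, at 1494, 1601 and 1352 FPKM in the same order. Of 6 haematopoietic markers, 1 reached 1 FPKM (Cd68, at 4.08, 3.54 and 1.57 FPKM), with Adgre1 under 1 FPKM in every library, Cd3e listed at 0 throughout and summed levels of 4.67, 4.82 and 1.95 FPKM. Of 4 endothelial markers, 1 reached 1 FPKM (Kdr, at 1.33 FPKM after Fn1 knockdown), Cdh5 was at 0.809 FPKM or less, and the sums lay between 1.75 and 1.91 FPKM. None of 4 epithelial markers did, with Epcam and Krt14 listed at 0 throughout, Cdh1 and Krt5 at 0.0619 FPKM or less and sums of 0.0884 FPKM or less. A gene was tested when it reached 1 FPKM in either library of a comparison and called when its log2(FPKM + 1) lay at least 1 above or below that of the control, which is 2-fold on that scale. The word rose or fell is kept for called genes.

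Fn1, the ligand (ENSMUSG00000026193.15, GRCm38 chromosome 1, 71585520 to 71653200, minus strand), fell after knockdown and was slightly lower with NELL2 overexpression. Its level was 2802 FPKM in the control, 2489 FPKM in the NELL2 library and 137 FPKM in the knockdown library. The control and NELL2 libraries were therefore both far above the knockdown library. By level among all rows, Fn1 ranked 6 in the control, 5 in the NELL2 library and 435 in the knockdown library. The log2 ratio to the control was -4.35 after knockdown and -0.17 with NELL2 overexpression, and 88.2% of the tested genes had a log2 ratio at least as high as Fn1 in the latter comparison. In estimated fragments, Fn1 took 2.33% of the control library, 2.07% of the NELL2 overexpression library and 0.114% of the knockdown library. In RNA from whole cultures, fewer cells that express a gene and less RNA per cell cannot be told apart.

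An exon of Apol7d overlaps an exon of Fn1 on the other strand, and the strand setting of the counting is not stated. Apol7d was at 3.09 FPKM in the control, 1.47 FPKM in the NELL2 library and 0.424 FPKM in the knockdown library, so it followed the order of Fn1 at a far lower level. Reads from this pair cannot be told apart without strand. Of the receptor genes, Itga4, Itga8 and Itgav also have opposite-strand exon overlaps, with partners (Cerkl, E030013I19Rik and Gm13684) at 0.219 FPKM or less in every library, and none of the 9 genes shares an exon with another gene on its own strand.

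**Figure D1:**
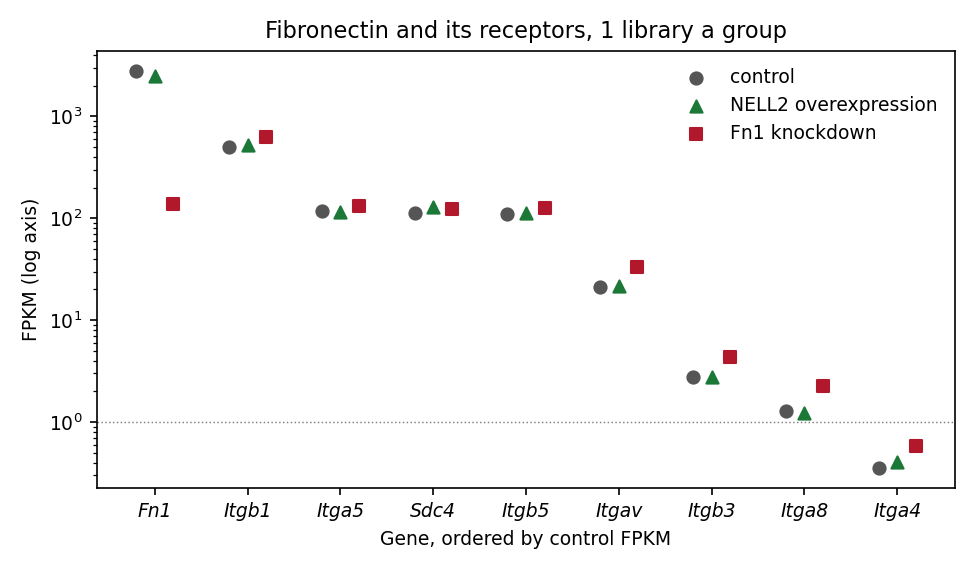
FPKM of the 9 genes (log axis) in the control, NELL2 and knockdown libraries, 1 point a library, with genes ordered by control level and a dotted line at 1 FPKM. Fn1 drops from 2802 to 137 FPKM after knockdown, and each of the 8 receptor genes is higher in the knockdown than in the control library.

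The beta subunits were led by Itgb1, which pairs with most alpha subunits in the list. Itgb1 (ENSMUSG00000025809.15, chromosome 8, 128685654 to 128733200) was at 497 FPKM in the control, 527 FPKM in the NELL2 library and 624 FPKM in the knockdown library. The knockdown library was the highest of the 3. The ratio to the control was 1.26 after knockdown and 1.06 with NELL2 overexpression. A 95% exact binomial interval on the estimated fragments, which covers counting error only and not the spread between cultures, ran from 1.24 to 1.27 and from 1.05 to 1.07. With 137 FPKM left for Fn1, Itgb1 stood above its ligand in the knockdown library, where Fn1 was at 0.219 times the level of Itgb1, against 5.64 times in the control and 4.72 times with NELL2 overexpression.

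Itgb5, which pairs with Itgav alone, was at 109, 113 and 127 FPKM in the control, NELL2 and knockdown libraries. Its ratio to the control was 1.04 with NELL2 overexpression and 1.16 after Fn1 knockdown, with counting intervals of 1.01 to 1.07 and 1.13 to 1.20. Itgb3, the vitronectin receptor subunit that also pairs with Itgav, was at 2.79, 2.75 and 4.33 FPKM in the same order. The control and NELL2 libraries were alike for Itgb3 and the knockdown library was higher. Its ratio was 1.56 after Fn1 knockdown (counting interval 1.36 to 1.78, from about 370 to about 606 estimated fragments) and 0.986 with NELL2 overexpression (0.852 to 1.14). The Itgb5 level was 39.2 times that of Itgb3 in the control, 41.3 times with NELL2 overexpression and 29.3 times after Fn1 knockdown.

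Among the alpha subunits, Itga5 had the highest level in every library, followed by Itgav. Itga5, which pairs with Itgb1 as the classical fibronectin receptor (ENSMUSG00000000555.8, chromosome 15, 103344286 to 103366763), was at 117 FPKM in the control, 115 FPKM in the NELL2 library and 133 FPKM in the knockdown library. Its ratios were 0.983 with NELL2 overexpression (counting interval 0.958 to 1.01) and 1.13 after Fn1 knockdown (1.11 to 1.16). Itgav, which pairs with Itgb1, Itgb3 or Itgb5 (ENSMUSG00000027087.11, chromosome 2, 83724397 to 83806916), was at 21.3 FPKM in the control, 21.9 FPKM in the NELL2 library and 33.5 FPKM in the knockdown library. Here the control and NELL2 libraries lay close together and the knockdown library stood above both. The Itgav log2 ratio was 0.63 after Fn1 knockdown, a ratio of 1.57 with a counting interval of 1.51 to 1.64, and 0.033 with NELL2 overexpression. A log2 ratio at least as high as that of Itgav after knockdown was found in 2.61% of all tested genes.

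The other alpha subunits were near the limit of the filter. Itga8, another partner of Itgb1 that reads RGD, was at 1.30 FPKM in the control, 1.24 FPKM in the NELL2 library and 2.25 FPKM in the knockdown library. Its ratio after knockdown was 1.73, with a counting interval of 1.44 to 2.10 on about 173 and 316 estimated fragments, while its log2 ratio on the FPKM + 1 scale, which understates low genes, was 0.50. Itga4, the subunit that reads the LDV site, was at 0.355, 0.410 and 0.586 FPKM in the control, NELL2 and knockdown libraries. It was under 1 FPKM in all 3 libraries and so was not tested. Its ratio after knockdown was 1.65 with an interval of 1.24 to 2.19, and with NELL2 overexpression 1.15 with an interval of 0.845 to 1.57, on about 80, 95 and 138 estimated fragments.

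Sdc4, the syndecan, was at 113 FPKM in the control, 130 FPKM in the NELL2 library and 124 FPKM in the knockdown library. Both values were above that of the control. As the spread between cultures was not measured, no order of the 3 libraries is established for Sdc4. The same holds for the orders given for the other receptor genes. The ratio to the control was 1.15 with NELL2 overexpression (counting interval 1.12 to 1.19) and 1.10 after knockdown (1.07 to 1.14). Its log2 ratio of 0.20 with NELL2 overexpression was reached or passed by 11.5% of all tested genes. The list of other syndecans and cytoplasmic partners held 6 genes, all tested. None was called with NELL2 overexpression or after Fn1 knockdown, against 0.652% and 1.23% of all tested genes. With NELL2 overexpression 3 were higher and after Fn1 knockdown 5 were, against 52.3% and 49.5% of all tested genes. Sdc2, the highest of them, was at 124, 122 and 148 FPKM in the control, NELL2 and knockdown libraries, and Sdcbp, the adaptor syntenin, was at 88.5, 93.6 and 99.0 FPKM.

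**Figure D2:**
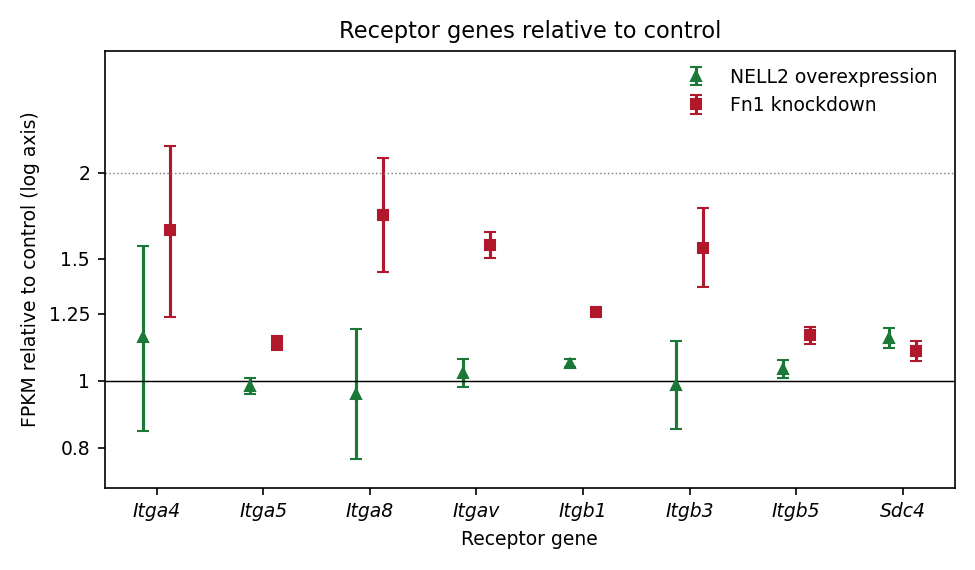
FPKM of each receptor gene relative to the control (log axis) with NELL2 overexpression and Fn1 knockdown, 1 library a group. Bars are 95% binomial intervals on estimated fragments and cover counting error only; the dotted line marks 2-fold. The knockdown ratios run from 1.10 for Sdc4 to 1.73 for Itga8, and the NELL2 ratios from 0.956 for Itga8 to 1.15 for Itga4 and Sdc4.

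As a group the receptor genes were higher after Fn1 knockdown, each by less than 2-fold. After knockdown, 8 of the 8 were above the control by some amount, 7 of them among the tested genes, of which 49.5% were above the control. None of the 7 tested receptors was called, against 1.23% of all 12574 genes called in either direction. The median log2 ratio of the 7 was 0.33, with a range from 0.14 to 0.63, against a median of -0.0028 over all tested genes. At a 1.5-fold cutoff, Itgav was called higher, 1 of 7, against 2.92% of all tested genes. With that cutoff and a pseudocount of 0.1, a setting chosen after seeing the data, Itgav, Itgb3 and Itga8 were called higher, 3 of 7, against 4.74% of all tested genes. As plain FPKM ratios, the receptors of lower level had the larger values, between 1.56 and 1.73 for Itgav, Itgb3, Itga4 and Itga8, against 1.10 to 1.26 for Itgb1, Itga5, Itgb5 and Sdc4. This order depends on the scale, since on log2(FPKM + 1) Itga4 was at 0.23 and Itgb1 at 0.33, and with a pseudocount of 5 Itga8 was at 0.20 and Itgb3 at 0.26.

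With NELL2 overexpression the receptor genes stayed near the control. Of the 8 genes, 5 were above the control and 3 below it, and among the 7 tested 4 were above it, where 52.3% of all tested genes were. None of the 7 was called, against 0.652% of 12572 genes called in either direction. At the 1.5-fold cutoff 0 of 7 were called higher, against 1.54% of all tested genes, and with a pseudocount of 0.1 as well 0 of 7 against 2.75%. Their median log2 ratio was 0.033, with a range from -0.036 to 0.20, against 0.0072 over all tested genes. Both comparisons use the same control library, so their ratios are not independent of each other.

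**Figure D3:**
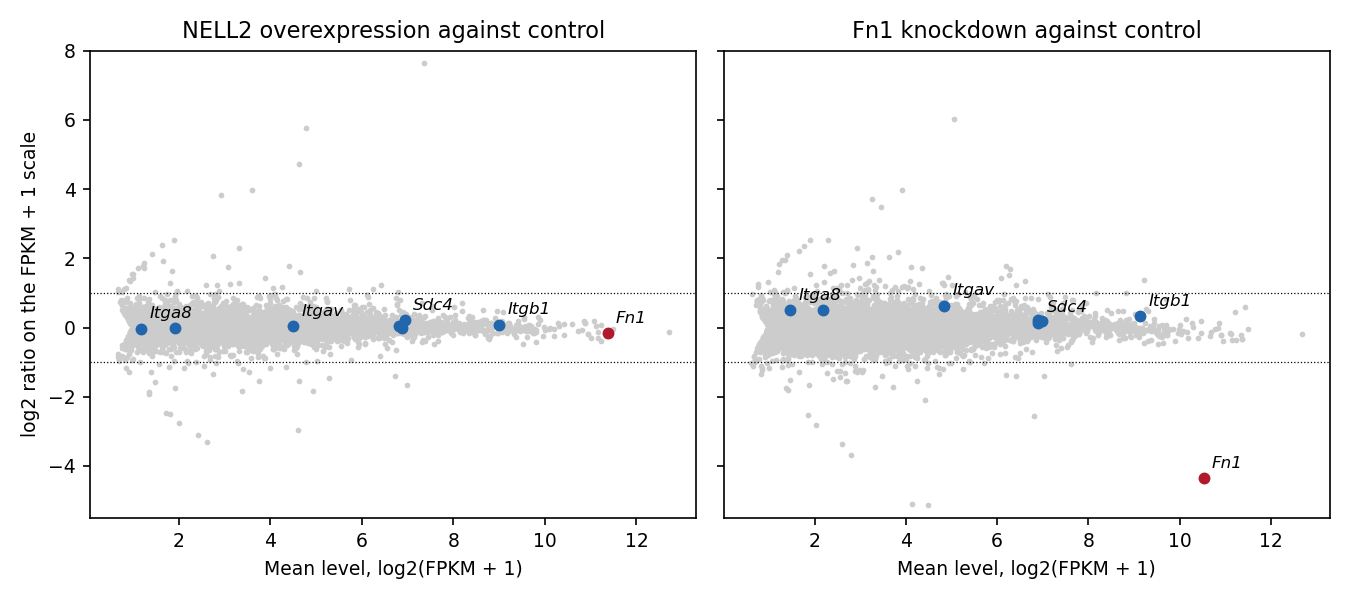
Log2 ratio to the control on the FPKM + 1 scale against mean level, for all tested genes (grey), the tested receptor genes (blue) and Fn1 (red), with NELL2 overexpression on the left and Fn1 knockdown on the right; dotted lines mark 2-fold. Fn1 sits at -4.35 after knockdown, and the receptor genes lie between 0.14 and 0.63 there.

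The make-up of the receptor transcripts was compared next. Of the summed level of the 4 alpha subunits, Itga5 held 83.6% in the control, 83.0% in the NELL2 library and 78.5% in the knockdown library. Itgav held 15.2%, 15.8% and 19.8%. Itga8 held 1.33% or less and Itga4 held 0.346% or less in every library. Of the 3 beta subunits, Itgb1 held 81.6%, 81.9% and 82.6%, and Itgb5 held 17.9%, 17.6% and 16.8%. The share of the alpha sum in Itgav was thus larger after knockdown, and the beta shares moved by less. Summed beta transcripts were at 4.35, 4.64 and 4.46 times the summed alpha transcripts in the control, NELL2 and knockdown libraries. The sums hold only the listed subunits. Other alpha subunits, such as Itga11 and Itga3 at 29.7 and 20.5 FPKM in the control, are left out, so this ratio depends on the choice of members. By level in the control, Fn1 came first and Itgb1 next, then Itga5, Sdc4 and Itgb5 close together between 109 and 117 FPKM, then Itgav, Itgb3, Itga8 and Itga4. As the spread between cultures was not measured, Itga5, Sdc4 and Itgb5 cannot be put in an order. Fn1 was at 3.25 times the summed level of the 8 receptors in the control, 2.73 times with NELL2 overexpression and 0.130 times after knockdown.

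**Figure D4:**
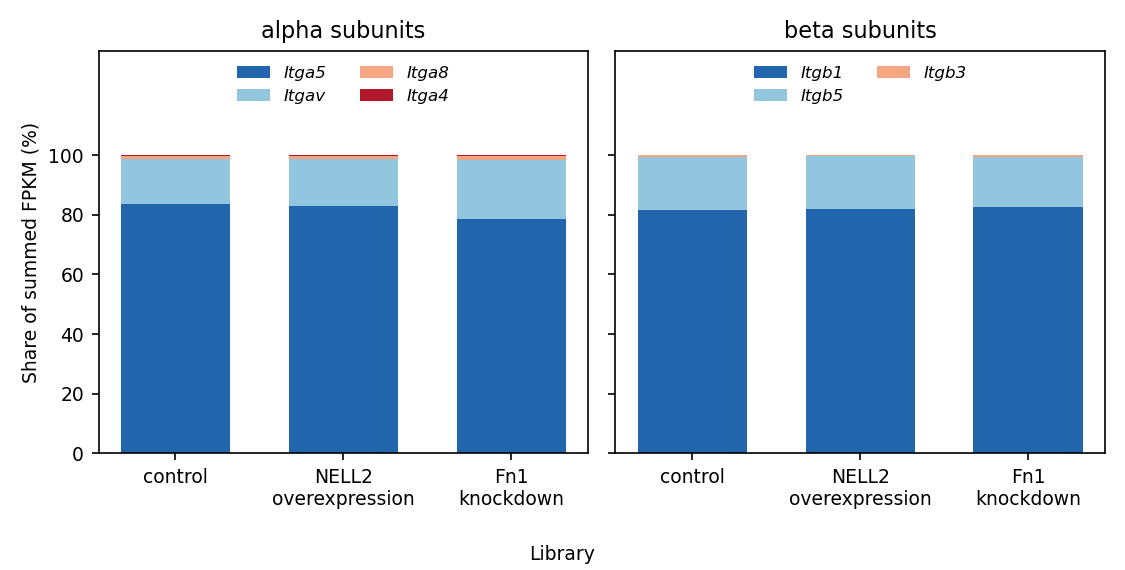
Share of the summed FPKM of the 4 alpha subunits (left) and of the 3 beta subunits (right) held by each gene, 1 library a bar. Itga5 and Itgb1 hold most of each sum in every library, and the share of Itgav is 15.2% in the control and 19.8% after Fn1 knockdown.

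Other integrin subunits were taken from a fixed list of 19 genes for receptors of collagen, laminin, leukocytes and others, some of which can also bind fibronectin. Of these, 8 were tested in each comparison. None was called after Fn1 knockdown or with NELL2 overexpression, against 1.23% and 0.652% of all tested genes. Of all tested genes, 49.5% and 52.3% were above the control in these comparisons. In the list, 4 were above and 4 below the control after Fn1 knockdown, with a median log2 ratio of 0.017. With NELL2 overexpression 3 were above and 5 below, with a median of -0.087. Itga11, a collagen receptor subunit and the highest of the list, was at 29.7, 32.2 and 29.1 FPKM in the control, NELL2 and knockdown libraries, and Itga3, a laminin receptor subunit, was at 20.5, 18.0 and 21.5 FPKM. No difference between this list and the fibronectin receptors was tested.

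Other ligands of the same integrins formed a list of 14 genes, of which 12 were tested. None was called after Fn1 knockdown or with NELL2 overexpression, against 1.23% and 0.652% of all tested genes. Of all tested genes, 49.5% and 52.3% were above the control in these comparisons. Of the 12 ligands, 8 were above and 4 below the control after Fn1 knockdown, with a median log2 ratio of 0.12. With NELL2 overexpression 5 were above and 7 below, with a median of -0.0090. Thbs1 (thrombospondin 1) was at 2177 FPKM in the control, 2237 FPKM in the NELL2 library and 3302 FPKM in the knockdown library, and Spp1 (osteopontin, an RGD ligand) was at 2008, 2283 and 2727 FPKM. These were the highest ligands of the list in the control, and both stood above Fn1 in the knockdown library.

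Matrix proteins and enzymes that bind, crosslink or process fibronectin-rich matrix formed a list of 14 genes, all tested, which shares 2 genes with the ligand list, Thbs1 among them. None was called after Fn1 knockdown or with NELL2 overexpression, against 1.23% and 0.652% of all tested genes. Of all tested genes, 49.5% and 52.3% were above the control in these comparisons. In this list of 14, 7 were above and 7 below the control after Fn1 knockdown, with a median log2 ratio of -0.0018. With NELL2 overexpression 12 were above and 2 below, with a median of 0.074. Col1a1, whose collagen fibrils assemble on fibronectin, was at 1494, 1601 and 1352 FPKM in the control, NELL2 and knockdown libraries.

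The list of proteins that link integrin tails to actin or signal from them held 22 genes, of which 20 were tested. None was called with NELL2 overexpression, against 0.652% of all tested genes. In that comparison 8 were above and 12 below the control with a median log2 ratio of -0.039, against 52.3% of all tested genes above it. After Fn1 knockdown 2 of the 20 fell, against 0.549% of all tested genes, and 0 rose, against 0.684%. The median was -0.021, with 9 above and 11 below the control, against 49.5% of all tested genes above it. Vcl (vinculin, which binds talin and actin) was at 188 FPKM in the control, 142 FPKM in the NELL2 library and 70.5 FPKM in the knockdown library, a log2 ratio of -1.40. Lims1 (PINCH, a partner of integrin-linked kinase) was at 55.7, 59.0 and 27.2 FPKM, with a log2 ratio of -1.01 after knockdown that lies at the cutoff. The most abundant members in the control were not called, with Zyx (zyxin) at 350, 328 and 315 FPKM and Flna (filamin A) at 293, 269 and 281 FPKM.

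**Figure D5:**
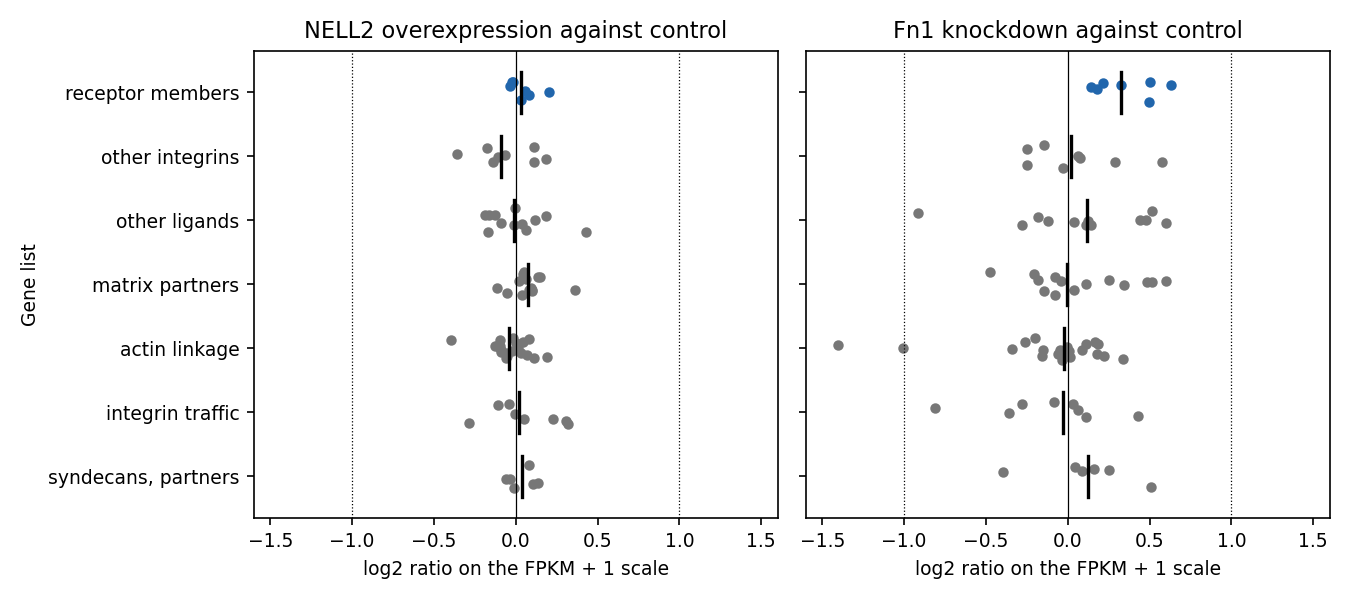
Log2 ratio to the control on the FPKM + 1 scale for each tested gene of the receptor set (blue) and of 6 related lists (grey), with the median of each list as a black bar and dotted lines at 2-fold. After Fn1 knockdown the receptor median is 0.33, and 2 genes of the actin linkage list lie at or beyond the 2-fold line on the lower side.

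Genes with the most similar pattern were sought among 6524 genes that reached 10 FPKM in some library, by the Euclidean distance between the pairs of log2 ratios over the 3 libraries. Each pattern is only a pair of ratios that share the control library, and no reference distance was computed. With so many genes, close neighbours can arise without any link between them, and joint regulation was not tested. For Itgav the nearest were Maoa (distance 0.0069), Cat (0.014) and Rras (0.018), and Cat, for example, was at 46.0, 46.7 and 71.8 FPKM in the control, NELL2 and knockdown libraries. For Itgb1 they were Pdcl (0.0011), Ensa (0.0052) and P3h1 (0.0058), and for Itga5 they were Dram2 (0.0065), Nemf (0.0067) and Acap3 (0.0070). For Fn1 the rule named H1fx, Gm20431 and Cpne1. H1fx and Gm20431 were listed at 0 in the knockdown library, so their ratios and distances to Fn1 are set by the pseudocount and are not given. Cpne1, at 33.8, 33.4 and 7.20 FPKM in the control, NELL2 and knockdown libraries, lay at a distance of 2.27.

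Promoters were available for 7 of the 9 genes in the RefSeq table (GRCm38.p6, from 250 bases before to 50 after the start), with Fn1 and Itgb3 without an entry. Those of Itgav (plus strand, chr2:83724147-83724446), the receptor called higher after knockdown at the 1.5-fold cutoff, and Itgb1 (plus strand, chr8:128685404-128685703), the most abundant receptor, are shown. Capitals mark matches to the GC box GGGCGG on either strand.
Itgav promoter: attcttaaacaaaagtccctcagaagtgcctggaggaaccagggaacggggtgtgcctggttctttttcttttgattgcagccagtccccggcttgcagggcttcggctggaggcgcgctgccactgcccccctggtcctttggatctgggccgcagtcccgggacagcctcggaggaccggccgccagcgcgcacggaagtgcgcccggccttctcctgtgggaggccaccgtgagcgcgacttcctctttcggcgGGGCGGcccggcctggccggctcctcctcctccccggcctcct
Itgb1 promoter: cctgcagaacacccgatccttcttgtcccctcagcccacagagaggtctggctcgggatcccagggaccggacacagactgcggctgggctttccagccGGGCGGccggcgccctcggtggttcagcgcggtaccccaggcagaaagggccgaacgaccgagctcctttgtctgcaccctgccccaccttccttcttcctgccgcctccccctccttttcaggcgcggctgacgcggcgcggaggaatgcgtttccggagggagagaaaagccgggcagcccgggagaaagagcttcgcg
The GC box was found in 6 of the 7 promoters, all but that of Itga8, and in 35.7% of all 32851 promoters in the table. The GC content of the 7 lay between 58.7% and 67.7%, against a median of 52.7% over all promoters. The other motifs searched on both strands were a CRE (TGACGTCA, in 1.79% of all promoters), an AP-1 site (TGANTCA, in 7.81%), a CCAAT box (CCAAT, in 37.4%) and a TATA box (TATAAA, in 13.6%), and 0 of the 7 promoters held any of these. None of the motifs searched contains another. These letter matches are descriptions of the windows and not binding sites, and whether they bear on the levels was not tested.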

How the data were processed

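Polyadenylated RNA of 3 ST2 cultures was sequenced by the authors as paired 150 base reads on an MGISEQ-2000 and mapped to mouse transcripts with HISAT2, and the submitters' processing notes name GRCm38 and DESeq. The deposited values are FPKM per gene, scaled by the authors to transcript length and mapped fragments. The program, annotation and strand setting behind them are not given in the sources used here. Since the values were not counts and each group had 1 library, no test was applied.

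The members and gene lists were chosen with earlier results of these data known. Ratios to the control were taken as log2(FPKM + 1) with a filter of 1 FPKM in either library. Genes named were the 9 members, list members called in either comparison, the 2 highest of each list in the control and the 3 nearest patterns of Fn1, Itgb1, Itgav and Itga5. Cd3e, Epcam and Krt14 were named after their values of 0 were seen. Itgam, on 2 rows, was summed. The value of 1 marker is not reported here. Depth was estimated from the smallest steps of FPKM multiplied by length, over genes with 1 transcript of at least 600 bases, and 24.7% to 25.5% of low values lay within 0.02 of a whole fragment, so fragment numbers, taken with the longest coding transcript, are approximate. Positions are those of GENCODE M21. Python 3.11.15, pandas 2.3.3 and SciPy 1.17.1 were used.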

Additional observations from a re-analysis of the deposited data

How the results depend on the processing

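No paired analysis was possible because there was a single library per group, and leave-one-out fits could not be made either. Under the 9 alternatives tried, the 162 values of single members kept their sign. A change of pseudocount, cutoff or filter cannot change a sign, so only the scalings could have done so, and their factors lay between 0.996 and 1.004. Among tested genes, 4 of the values passed the cutoff where the main setting did not, all after Fn1 knockdown. These were Itgav with a 1.5-fold cutoff and Itgav (0.65), Itgb3 (0.62) and Itga8 (0.75) with a pseudocount of 0.1 and a 1.5-fold cutoff, so that receptor genes called after knockdown numbered 1 and 3 there in place of 0. Itga4, which was not tested, was at 0.59 after knockdown with a pseudocount of 0.1. A pseudocount of 5 lowered the values after knockdown of Itga8 from 0.50 to 0.20, of Itgb3 from 0.49 to 0.26 and of Itga4 from 0.23 to 0.06. The receptor median after knockdown ranged from 0.21 to 0.34 and with NELL2 overexpression from 0.024 to 0.055. Fn1 was at 4.88% to 4.91% of the control after knockdown and at 88.2% to 88.8% with NELL2 overexpression. These percentages use no pseudocount, cutoff or filter, so only the scalings could move them. Scaling to the total without Fn1 and Nell2 left the receptor median after knockdown at 0.33. All genes called with NELL2 overexpression and after Fn1 knockdown, 82 and 155, became 178 and 358 with a pseudocount of 0.1, 26 and 50 with a pseudocount of 5, 325 and 784 with a 1.5-fold cutoff, and 593 and 1346 with a pseudocount of 0.1 and a 1.5-fold cutoff. A filter of 5 FPKM gave 47 with NELL2 overexpression. The split after knockdown, 86 higher and 69 lower, was 367 and 417 with the 1.5-fold cutoff, and the cause was not tested. The setting that joins a pseudocount and a cutoff was chosen after seeing the data. Depth limits Itga4 most, at about 80 fragments in the control.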

Other observations

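Genes for the traffic and inactivation of integrins formed a list of 9, of which 8 were tested. None was called after Fn1 knockdown or with NELL2 overexpression, against 1.23% and 0.652% of all tested genes. Of all tested genes, 49.5% and 52.3% were above the control in these comparisons. Of the 8 traffic genes, 4 were above and 4 below the control after Fn1 knockdown, with a median log2 ratio of -0.028. With NELL2 overexpression 4 were above and 4 below, with a median of 0.022. Rab11a, a recycling GTPase and the highest of them in the control, was at 40.1, 37.1 and 41.9 FPKM in the control, NELL2 and knockdown libraries. Snx17, a sorting nexin that returns beta subunits from endosomes to the surface, was at 31.4, 39.2 and 42.7 FPKM.

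Of the 10 stromal markers, 1 was called after Fn1 knockdown, against 1.23% of all 12574 tested genes, and 0 with NELL2 overexpression, against 0.652% of 12572. Nt5e, the surface ecto-nucleotidase known as CD73, rose from 2.17 FPKM in the control to 10.1 FPKM after Fn1 knockdown and was at 2.47 FPKM with NELL2 overexpression.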
